A study of Mus musculus with 24 samples.

Results

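Transcripts of neutrophil granule proteins, of the calprotectin subunits S100a8 and S100a9 and of the chitinase-like protein Chil3 were followed in splenic CD11c+ dendritic cells (DCs) of BALB/c mouse pups. The 10 genes were Mpo, Elane, Ltf, Lcn2, Ngp, Camp, Mmp9, S100a8, S100a9 and Chil3, out of 12393 genes that had a probe set with a single gene symbol. They were chosen by name on earlier results of these arrays, in which genes of this kind stood out in the difference between stimulated at-risk and stimulated normal pups of Set 1 and in the interaction of maternal status and allergen. Every probe set whose only symbol was one of them was kept, which gave 11 probe sets of 22626 tested, 2 for Mmp9 and 1 for each of the other genes, those of Mmp9 being written Mmp9 a and Mmp9 b in the order of their probe set numbers. A further probe set carried the symbols of both Chil3 and Chil4, and it was not counted among the 11.

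Asthma-at-risk pups were offspring of BALB/c mothers that had been sensitised with ovalbumin (OVA) and alum as neonates, exposed to OVA aerosol after weaning and mated with normal males. Normal pups were born to control mothers. In stimulated pups a single intraperitoneal injection gave 5 µg of OVA and 1 mg of alum, on day 3 of life by the sample labels and a day later by the study's methods, and naïve pups received none. The DCs of all groups were harvested at 14 days of age and retained on CD11c magnetic beads. By the study's methods, flow cytometry for CD11c and MHC class II was used to follow purity, and nearly all purified cells carried both. Purity was not given for single preparations. Set 1 held 4 stimulated at-risk arrays (AF88 to AF91), 4 stimulated normal arrays (AF84 to AF87), 4 naïve at-risk arrays (AF80 to AF83) and 3 naïve normal arrays (AF76, AF77 and AF79). Set 2, whose RNA was NuGEN amplified by the study's methods, held 5 stimulated at-risk arrays (AF123 to AF127) and 4 stimulated normal arrays (AF118 to AF121), and no naïve arrays. The sample labels name neither set nor amplification. Arrays were assigned to a set by the array numbers in their titles and the set sizes in the study's methods. How many pups gave the cells of an array, and whether the pups of a group were littermates, was not stated in what was read here. The study's methods call the arrays of a group biological replicates, and the p-values measure the spread between them.

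Neutrophils fill their granules in the order in which they mature. Promyelocytes make the azurophil granule with myeloperoxidase and elastase, myelocytes make the specific granule with lactoferrin, lipocalin 2, cathelicidin and neutrophilic granule protein, and later stages make the gelatinase granule with Mmp9. S100A8 and S100A9 pair as calprotectin, the most abundant protein of the neutrophil cytosol. Chil3 (Ym1) is a secreted chitinase-like lectin without chitinase activity, made by maturing neutrophils and by macrophages under type 2 cytokines. The spleen of the neonatal mouse still forms blood cells, and it holds precursors of these lineages beside the DCs.

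Median signal per array ran from 272.1 to 297.8 over the 24 arrays, and within a group the arrays differed by a median SD of 0.10 to 0.15 log2 units. The summed signal of 14 DC markers (such as Itgax, Flt3, Zbtb46 and the MHC class II genes) ran from 94220 to 107298 over the arrays. A sum of signals weighs the brightest genes most, so it does not check DC identity or DC content. The highest signal on an array was 14.71 to 14.85 on the log2 scale in Set 1 and 14.47 to 14.63 in Set 2, and S100a9 stood near them, at 13.71 to 14.13 over all arrays. In these bulk samples fewer cells of a type and less RNA per cell cannot be told apart.

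The promoters of the genes that the results turn on are shown for the letters of 2 motifs bound by myeloid factors, C/EBP proteins and PU.1. They come from RefSeq on GRCm38.p6, each from 250 bases before to 50 bases after the gene start, 5′ to 3′ on the strand of the gene, and 9 of the 10 genes were matched (Mmp9 was not). Capitals mark TTNNGNAA, the C/EBP type motif, or GAGGAAG, the PU.1 type motif, on either strand. The promoters of Chil3 (chr3:106167515-106167814, minus strand), Ngp (chr9:110419558-110419857, plus strand) and Ltf (chr9:111019042-111019341, plus strand) stand for genes with a C/EBP type match, and those of Mpo (chr11:87793534-87793833, plus strand) and Elane (chr10:79886062-79886361, plus strand) for genes with a PU.1 type match.
Mpo: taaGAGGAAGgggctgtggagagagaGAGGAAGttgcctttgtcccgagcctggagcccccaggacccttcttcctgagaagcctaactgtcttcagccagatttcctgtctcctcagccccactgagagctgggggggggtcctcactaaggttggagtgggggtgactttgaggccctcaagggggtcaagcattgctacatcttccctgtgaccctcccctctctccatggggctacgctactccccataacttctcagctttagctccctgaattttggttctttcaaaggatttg
Elane: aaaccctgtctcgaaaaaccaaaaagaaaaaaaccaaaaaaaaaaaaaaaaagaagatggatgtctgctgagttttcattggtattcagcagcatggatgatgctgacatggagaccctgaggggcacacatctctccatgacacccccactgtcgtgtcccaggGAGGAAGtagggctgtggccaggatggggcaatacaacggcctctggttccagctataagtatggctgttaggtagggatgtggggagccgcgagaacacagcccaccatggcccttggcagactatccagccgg
Ltf: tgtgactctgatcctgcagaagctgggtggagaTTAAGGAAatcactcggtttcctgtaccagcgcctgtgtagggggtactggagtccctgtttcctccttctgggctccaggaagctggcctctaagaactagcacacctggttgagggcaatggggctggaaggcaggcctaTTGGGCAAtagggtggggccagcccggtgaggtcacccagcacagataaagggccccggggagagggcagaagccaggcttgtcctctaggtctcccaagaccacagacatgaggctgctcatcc
Ngp: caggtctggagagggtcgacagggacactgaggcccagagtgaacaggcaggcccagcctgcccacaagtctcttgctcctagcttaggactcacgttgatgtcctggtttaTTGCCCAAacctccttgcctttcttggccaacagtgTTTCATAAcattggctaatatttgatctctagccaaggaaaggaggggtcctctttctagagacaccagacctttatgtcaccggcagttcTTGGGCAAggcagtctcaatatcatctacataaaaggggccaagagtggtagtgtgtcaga
Chil3: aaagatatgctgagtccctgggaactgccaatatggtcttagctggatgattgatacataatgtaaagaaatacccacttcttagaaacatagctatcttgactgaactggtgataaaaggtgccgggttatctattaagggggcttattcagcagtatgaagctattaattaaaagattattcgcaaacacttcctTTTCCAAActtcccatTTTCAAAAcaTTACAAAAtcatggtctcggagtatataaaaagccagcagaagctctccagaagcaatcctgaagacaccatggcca

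TTNNGNAA stood in 6 of the 9 promoters (Lcn2, S100a8, S100a9, Chil3, Ngp and Ltf), against 40.7% of 32851 promoters of the same length. GAGGAAG stood in 4 of the 9 (Lcn2, S100a8, Elane and Mpo), against 13.6% of all. The palindrome TTGCGCAA, which is one of the forms of TTNNGNAA, stood in 0 of the 9 and in 0.2% of all. Chil3 and Ngp each held 3 matches to TTNNGNAA, and Mpo and Elane held none, nor did Camp. A match is a run of letters and was not tested as a binding site.

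**Figure D1:**
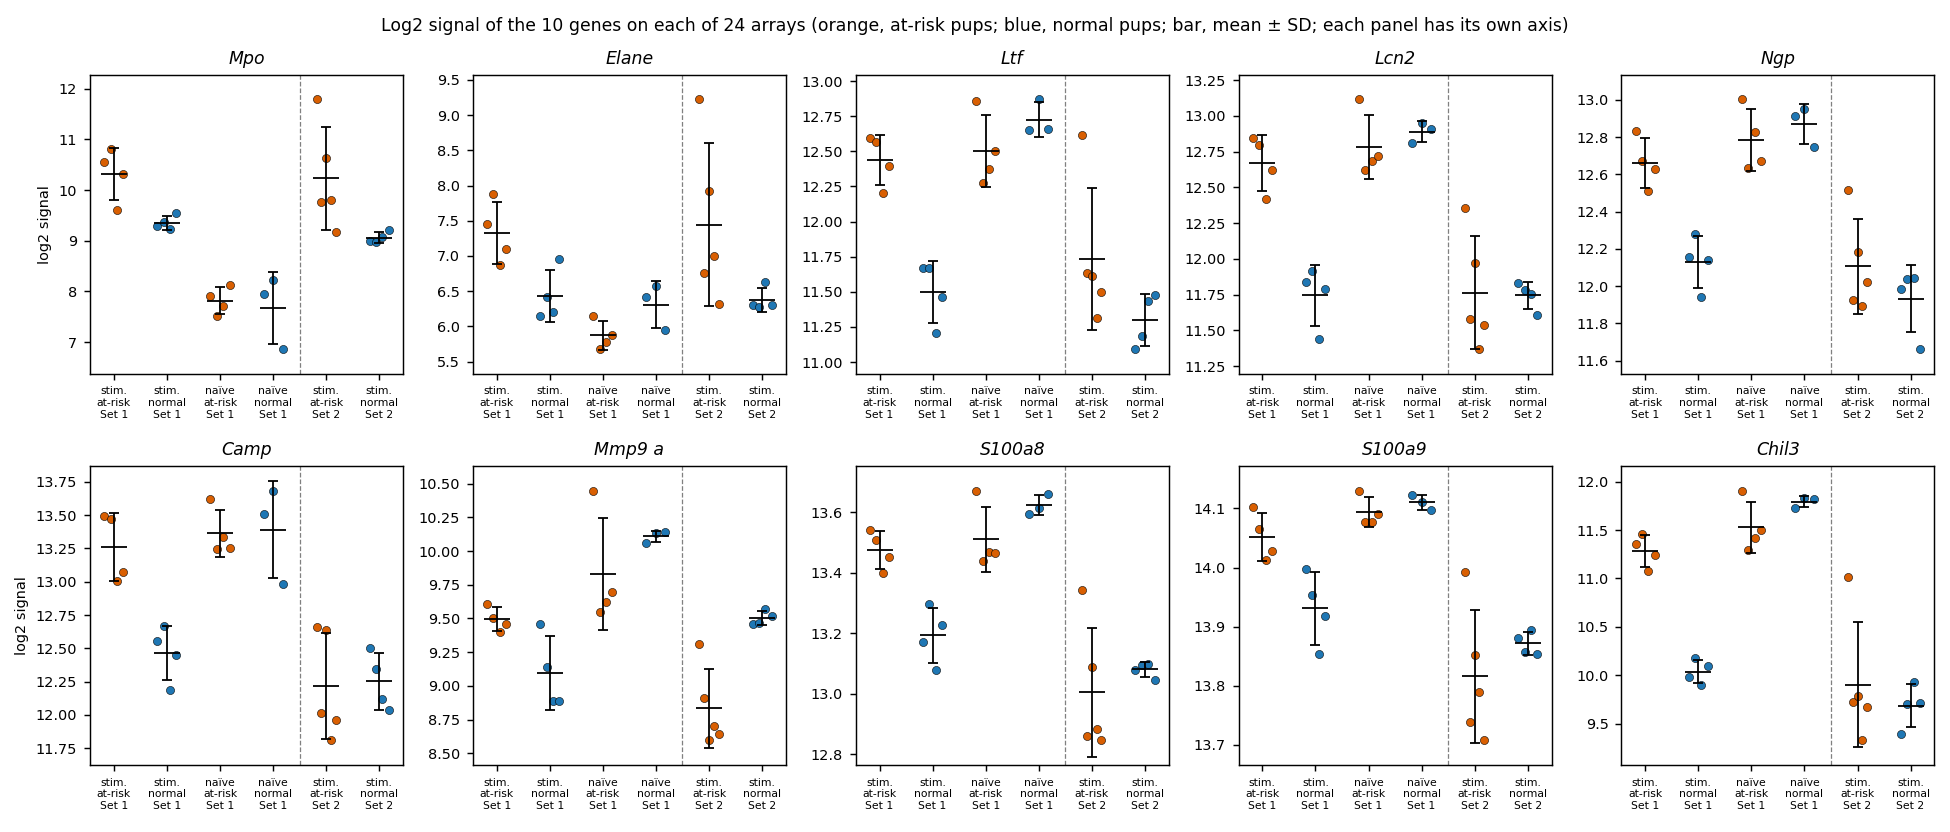
Log2 signal (y axis, a scale of its own for each gene) of the 10 genes on each of 24 arrays, by group on the x axis, with orange points for at-risk pups, blue points for normal pups and bars for the mean ± SD; the dashed line separates Set 1 from Set 2, and Mmp9 is drawn from Mmp9 a. In Set 1 Mpo stood at 9.23 or more in stimulated pups and at 6.87 to 8.22 in naïve pups, whereas Chil3 stood at 9.90 to 10.18 in stimulated normal pups and at 11.08 or more in the other 3 groups.

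The first comparison asked how the injection of OVA and alum changed these transcripts, in pups of each kind of mother, over the 15 arrays of Set 1. Both contrasts on which the genes were chosen use the stimulated arrays of Set 1, and so does this comparison. Its counts and p-values are therefore a description and no independent support. In normal pups 9 of the 11 probe sets were called, meaning that limma's p, adjusted by Benjamini-Hochberg over all probe sets, was at most 0.05 and the signals differed by at least 25%, against 11.5% of all probe sets tested. Chil3, the specific granule genes, Mmp9 and S100a8 were lower in stimulated normal pups and Mpo was higher. In at-risk pups 2 of the 11 were called, Mpo and Elane, both higher in stimulated pups, against 7.88% of all probe sets. The median change of the 11 was -0.75 in normal pups and -0.10 in at-risk pups on the log2 scale, where that of all probe sets was within 0.02 of 0. All 4 stimulated normal arrays lay below all 3 naïve normal arrays for 9 of the 11, against 10.3% of all probe sets, and above them for 1, against 11.6%. In at-risk pups the stimulated arrays lay above the naïve arrays for 2 of the 11, against 8.89% of all probe sets, and the other 9 overlapped.

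Mpo, the myeloperoxidase of the azurophil granule, which makes hypochlorous acid, rose in stimulated pups of both kinds of mother. Its log2 signal was 10.55, 10.81, 9.61 and 10.32 on the stimulated at-risk arrays and 7.91, 7.52, 7.72 and 8.13 on the naïve at-risk arrays, in the order of the array numbers, as are all values by array. It was 9.28, 9.37, 9.23 and 9.55 on the stimulated normal arrays, against 7.95, 8.22 and 6.87 on the naïve normal arrays. No stimulated array reached down to a naïve one, and AF79 was the lowest of the naïve normal arrays. The change was 2.50 (SE 0.27, adjusted p = 2.25e-05) in at-risk pups, a 5.67-fold difference, and 1.68 (SE 0.29, adjusted p = 0.00125) in normal pups, a 3.20-fold difference.

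Elane, the neutrophil elastase of the same granule, rose in at-risk pups. It had a log2 signal of 7.46, 7.88, 6.87 and 7.10 on the stimulated at-risk arrays, all above the 6.15, 5.68, 5.78 and 5.88 of the naïve at-risk arrays, with a change of 1.45 (SE 0.22, adjusted p = 0.000416). In normal pups it had 6.15, 6.42, 6.21 and 6.96 on the stimulated arrays and 6.41, 6.58 and 5.94 on the naïve arrays, which overlapped, with a change of 0.12 (SE 0.23, adjusted p = 0.778). Elane was a dim probe set: in a fit without the dimmest 40% of probe sets it was not tested, and the at-risk count was 1.

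Ltf encodes lactoferrin, an iron-binding protein of the specific granule. In at-risk pups its log2 signal was 12.60, 12.57, 12.21 and 12.39 on the stimulated arrays, within the range of the 12.86, 12.28, 12.38 and 12.51 of the naïve arrays but for AF90. In normal pups it fell to 11.67, 11.67, 11.20 and 11.46 on the stimulated arrays, against 12.65, 12.87 and 12.66 on the naïve arrays. The groups of normal pups did not overlap, and the change was -1.22 (SE 0.14, adjusted p = 4.84e-05), whereas at-risk pups had -0.06 (SE 0.13, adjusted p = 0.862).

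Lcn2, which encodes lipocalin 2, a protein that holds bacterial siderophores, had a log2 signal of 12.85, 12.80, 12.42 and 12.62 on the stimulated at-risk arrays and 13.11, 12.62, 12.68 and 12.72 on the naïve at-risk arrays. It was 11.84, 11.91, 11.44 and 11.79 on the stimulated normal arrays, each below the 12.81, 12.95 and 12.91 of the naïve normal arrays. In normal pups it fell by 1.15 (SE 0.14, adjusted p = 5.05e-05). In at-risk pups it changed by -0.11 (SE 0.13, adjusted p = 0.705).

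Camp, the precursor of the antimicrobial cathelicidin peptide CRAMP, and Ngp, neutrophilic granule protein, a cystatin-like protein, fell in normal pups by 0.93 (SE 0.17, adjusted p = 0.00192) and 0.74 (SE 0.10, adjusted p = 0.000227). Camp ran from 12.19 to 12.67 on the stimulated normal arrays and stood at 13.51, 13.68 and 12.99 on the naïve normal arrays, AF79 being the low one. Ngp ran from 11.94 to 12.28 on the stimulated normal arrays, against 12.75 to 12.95 on the naïve normal arrays. In at-risk pups the changes of Camp and Ngp were -0.10 (SE 0.16) and -0.12 (SE 0.10), and their groups overlapped.

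Mmp9, the gelatinase B that gives the gelatinase granule its name, was read by 2 probe sets, whose calls were the same in every comparison. In normal pups Mmp9 a had 9.46, 9.14, 8.89 and 8.89 on the stimulated arrays, all below the 10.06, 10.13 and 10.14 of the naïve arrays, and it fell by 1.02 (SE 0.18, adjusted p = 0.00154), while Mmp9 b fell by 0.75 (SE 0.17, adjusted p = 0.00755). In at-risk pups it had 9.61, 9.50, 9.40 and 9.46 on the stimulated arrays and 10.45, 9.55, 9.62 and 9.70 on the naïve arrays, with AF80 well above the rest. The change there was -0.33 (SE 0.17, adjusted p = 0.283), and -0.13 without AF80 (adjusted p = 0.655).

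S100a8 fell in normal pups by 0.43 (SE 0.07, adjusted p = 0.000827), with 13.08 to 13.30 on the stimulated arrays and 13.59 to 13.66 on the naïve arrays. Its partner S100a9 changed by -0.18 (SE 0.05, adjusted p = 0.0346), a 1.13-fold difference that did not reach the fold of a call, although its 4 stimulated arrays (13.85 to 13.998) lay below its 3 naïve arrays (14.10 to 14.12). Both probe sets lay near the top of the range of the arrays. In at-risk pups both changes were -0.04 (SE 0.07 and 0.05).

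Chil3 differed most among the members that fell. In normal pups its log2 signal was 9.98, 10.18, 9.90 and 10.10 on the stimulated arrays, against 11.73, 11.83 and 11.82 on the naïve arrays, a gap of more than 1.5 log2 units between the nearest arrays. The change was -1.76 (SE 0.13, adjusted p = 5.83e-07), a 3.38-fold difference. In at-risk pups it was 11.36, 11.46, 11.08 and 11.24 on the stimulated arrays and 11.91, 11.30, 11.41 and 11.50 on the naïve arrays, which overlapped, with a change of -0.24 (SE 0.12, adjusted p = 0.255). The probe set shared by Chil3 and Chil4 moved as Chil3 did, with -1.60 (SE 0.20, adjusted p = 9.51e-05) in normal pups and -0.38 (SE 0.19, adjusted p = 0.283) in at-risk pups. The probe set of Chil4 alone stood at 3.77 to 4.56 on all 24 arrays.

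**Figure D2:**
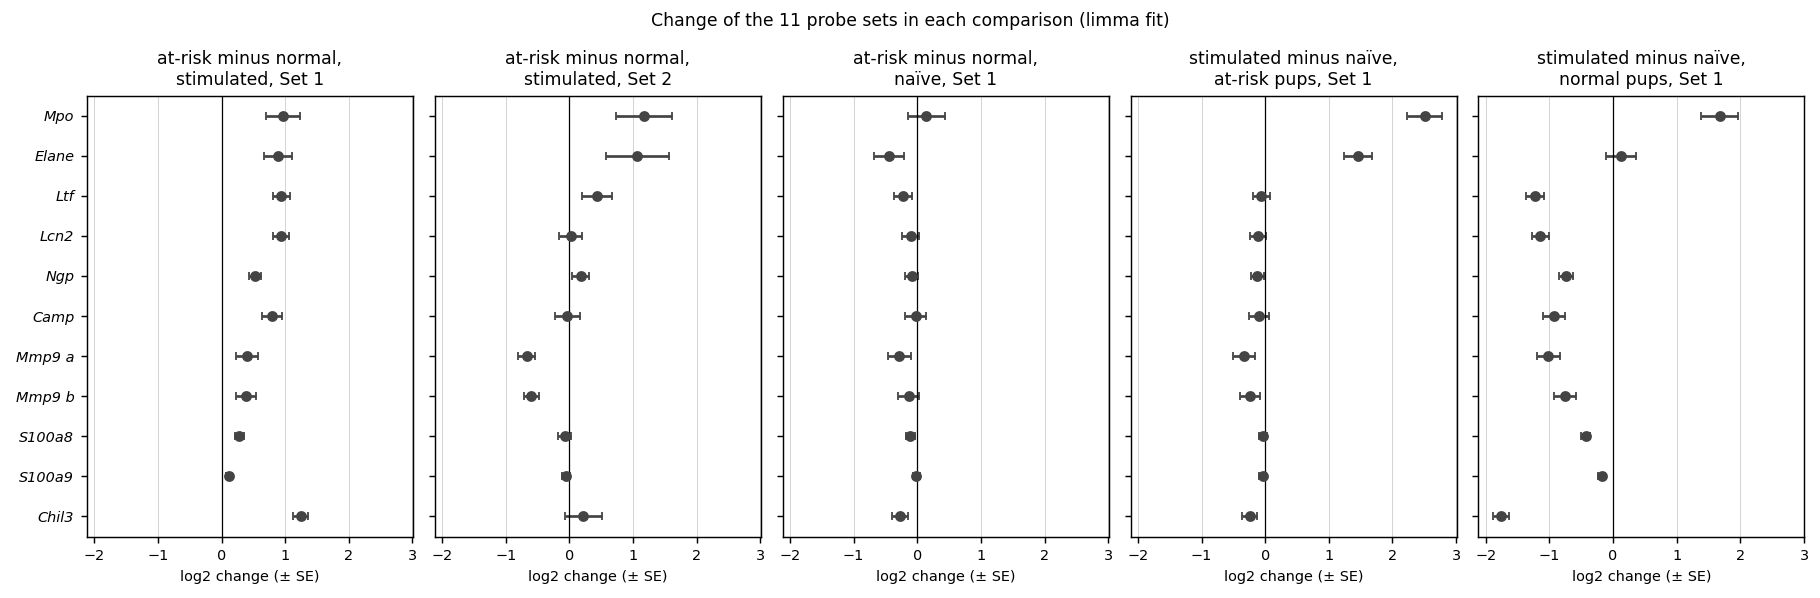
Log2 change (x axis, points with ± SE from the limma fit) of the 11 probe sets (y axis) in 5 comparisons, each panel naming which group was subtracted from which. In stimulated minus naïve normal pups 9 points lie left of 0, with Chil3 at -1.76, while in at-risk pups Mpo at 2.50 and Elane at 1.45 stand apart from the rest, which lie between -0.33 and -0.04.

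The difference between these changes, at-risk minus normal pups, is the interaction of maternal status and allergen. It was one of the contrasts on which the genes were chosen, so its values are a description with no test. It was positive for all 11 probe sets, from 0.14 (SE 0.07) for S100a9 to 1.51 (SE 0.17) for Chil3, with 1.33 (SE 0.32) for Elane, 1.16 (SE 0.20) for Ltf, 1.03 (SE 0.18) for Lcn2, 0.82 (SE 0.40) for Mpo and 0.82 (SE 0.23) for Camp. Of the 11, Chil3 was past the threshold of a call, against 0.0486% of all probe sets. None of the 11 was past it when the fit took in all 24 arrays, and 1 to 3 were as 1 array was left out (3 without AF80 or AF90). Among the members that fell in normal pups the changes in at-risk pups were between -0.33 and -0.04, whereas Elane and Mpo had their larger change in at-risk pups.

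The second comparison asked how at-risk pups differed from normal pups before any allergen. In naïve pups 0 of the 11 probe sets were called by limma and 0 had an unadjusted p under 0.05, against 0.34% called and 15.8% with such a p of all probe sets. The changes ran from -0.44 (SE 0.23) for Elane to 0.14 (SE 0.29) for Mpo, with -0.27 (SE 0.13) for Chil3, and 10 of the 11 were negative. The interaction, on which the genes were chosen, subtracts this naïve difference, so the choice favours negative values here. The signs, counts and p-values of this comparison are therefore a description. For none of the 11 did the groups lie apart, where the at-risk arrays lay above the normal arrays for 5.74% of all probe sets and below them for 5.39%. AF80 was the highest of the 4 naïve at-risk arrays for 10 of the 11 probe sets, and AF83 for Mpo. Without AF80 the change of Chil3 was -0.39 (SE 0.10, adjusted p = 0.149), and 0 of the 11 were called by limma.

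The third comparison asked how at-risk pups differed from normal pups after OVA and alum, and it was made in both sets. In Set 1 all 11 probe sets were higher in at-risk pups, with changes from 0.12 for S100a9 to 1.247 for Chil3 (median 0.80). The values by array are those given above for the stimulated groups. The 4 at-risk arrays lay above all 4 normal arrays for 8 of the 11, against 2.76% of all probe sets, and overlapped for Elane and both probe sets of Mmp9. Chil3 (1.247, SE 0.12), Ltf (0.94, SE 0.13) and Lcn2 (0.93, SE 0.13) passed the threshold of a call, against 0.0707% of all probe sets. The count was 1 without AF86, AF87, AF88, AF89 or AF91, 5 without AF79 or AF90 and 0 with all 24 arrays in the fit. Mpo was higher by 0.97 (SE 0.27), Elane by 0.89 (SE 0.22), Camp by 0.80 (SE 0.16) and Ngp by 0.53 (SE 0.10). This contrast shares its stimulated arrays with the interaction, and its values are likewise a description.

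The 9 arrays of Set 2 were not used by those contrasts. There 2 of the 11 probe sets were called, both of Mmp9 and both lower in at-risk pups, against 4.62% of all probe sets called in either direction. The at-risk arrays lay below all normal arrays for these 2, against 4.47% of all probe sets. The changes of the 11 ran from -0.67 to 1.18 with a median of 0.02, 6 positive and 5 negative. The groups overlapped for the other 9 probe sets, Chil3, Ltf and Lcn2 included.

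In Set 2 Chil3 had a log2 signal of 11.02, 9.72, 9.78, 9.33 and 9.67 on the at-risk arrays and 9.39, 9.71, 9.93 and 9.72 on the normal arrays. AF123 stood above all the others and the remaining at-risk arrays lay among the normal ones. The change was 0.22 (SE 0.29, adjusted p = 0.683) with AF123 and -0.06 (SE 0.13, adjusted p = 0.841) without it. Ltf had 12.61, 11.63, 11.61, 11.31 and 11.50 on the at-risk arrays and 11.09, 11.19, 11.44 and 11.48 on the normal arrays, and changed by 0.44 (SE 0.23, adjusted p = 0.295), or by 0.22 (SE 0.11, adjusted p = 0.332) without AF123. Lcn2 had 12.36, 11.58, 11.97, 11.37 and 11.54 on the at-risk arrays and 11.83, 11.78, 11.75 and 11.61 on the normal arrays, with a change of 0.02 (SE 0.18, adjusted p = 0.959) and of -0.13 (SE 0.12) without AF123. Camp, Ngp, S100a8 and S100a9 changed by -0.03 (SE 0.19), 0.18 (SE 0.14), -0.08 (SE 0.10) and -0.06 (SE 0.07), and none was called.

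The azurophil genes kept their Set 1 direction in Set 2 with a wide spread. Mpo had 11.79, 9.77, 10.64, 9.81 and 9.17 on the at-risk arrays and 8.99, 8.97, 9.07 and 9.21 on the normal arrays. AF123 and AF125 were the highest, and AF127 lay among the normal arrays. The change was 1.18 (SE 0.44, adjusted p = 0.16), and 0.79 (SE 0.25, adjusted p = 0.138) without AF123. Elane had 9.22, 6.76, 7.92, 6.99 and 6.31 on the at-risk arrays and 6.30, 6.27, 6.63 and 6.31 on the normal arrays, the same arrays being high, with a change of 1.06 (SE 0.50, adjusted p = 0.243) and of 0.62 (SE 0.29, adjusted p = 0.296) without AF123.

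Mmp9 ran the other way. In Set 2 Mmp9 a had 9.31, 8.91, 8.60, 8.70 and 8.64 on the at-risk arrays, all below the 9.46, 9.47, 9.57 and 9.52 of the normal arrays, and Mmp9 b had 8.54, 8.36, 8.20, 8.05 and 7.94, all below 8.80, 8.69, 8.82 and 8.96. They fell by 0.67 (SE 0.13, adjusted p = 0.0203) and 0.60 (SE 0.12, adjusted p = 0.02) in at-risk pups. Without AF123 the falls were 0.79 (SE 0.08, adjusted p = 0.000863) and 0.68 (SE 0.10, adjusted p = 0.0053). The calls did not hold for every array left out. Neither probe set was called without AF118, AF120 or AF126 and 1 was without AF119, AF121 or AF127, the adjusted p reaching 0.071 and 0.0666 at most, with all 9 values between -0.79 and -0.61 and between -0.68 and -0.53.

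**Figure D3:**
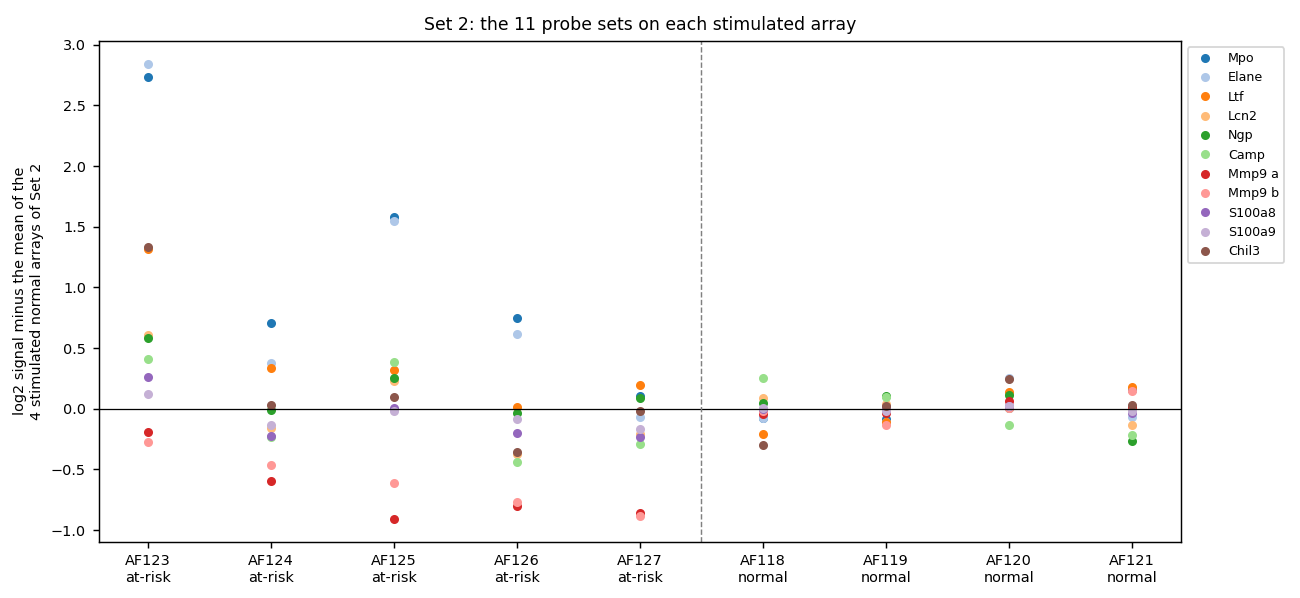
Log2 signal of the 11 probe sets (colours) on each of the 9 arrays of Set 2 (x axis, at-risk arrays left of the dashed line), minus the mean of the 4 normal arrays (y axis). AF123 holds the highest at-risk value of all 11 probe sets, and both Mmp9 probe sets lie below 0 on all 5 at-risk arrays.

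AF123 was the highest of the 5 stimulated at-risk arrays of Set 2 for 11 of the 11 probe sets. The summed signal of 12 erythroid markers (such as Rhag, Klf1 and Slc4a1) was 53875 on AF123 too, against 26033 to 38619 on the other 4 at-risk arrays and 20813 to 21097 on the 4 normal arrays. The second highest at-risk array for Mpo and Elane, AF125, also had the second highest erythroid sum, 38619. The DC marker sum was 94220 on AF123, the lowest of the 24 arrays, against 99200 or more on the others. The part of red cell precursors, or of DC content, in the values of AF123 and AF125 was not tested.

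In a fit of the difference itself, the sets differed in the maternal effect for 2 of the 11 probe sets, those of Mmp9. Of all probe sets 1.79% were called. The difference subtracts the Set 1 effect, on which the genes were chosen, so the choice favours values lower in Set 2. Its values for the 11 are a description. Set 2 minus Set 1 was -1.07 (SE 0.19, adjusted p = 0.00934) for Mmp9 a and -0.99 (SE 0.17, adjusted p = 0.00786) for Mmp9 b. The difference was -1.03 (SE 0.34, adjusted p = 0.147) for Chil3, -0.91 (SE 0.24, adjusted p = 0.0614) for Lcn2 and -0.83 (SE 0.26, adjusted p = 0.122) for Camp, and 0.21 (SE 0.54, adjusted p = 0.863) for Mpo. Without AF123 there were 6 calls, all lower in Set 2, against 1.7% of all probe sets called and 1.1% called lower, among them Chil3 at -1.31 (adjusted p = 0.00114), Lcn2 at -1.06 (adjusted p = 0.00776) and Ltf at -0.72 (adjusted p = 0.0442). Without AF125 there were 4, against 4.37% of all probe sets. Both arrays were singled out after the data were seen. AF123 held the highest at-risk value of Set 2 for all 11 probe sets, so leaving it out lowers the Set 2 effect. The sets differed in amplification and were preprocessed separately, and amplification, preprocessing and animals cannot be told apart between them.

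Over the 17 stimulated arrays of both sets, with set as a term, 2 of the 11 probe sets were called, against 1.73% of all probe sets. These arrays include the stimulated arrays of Set 1, on which the genes were chosen. The counts and p-values of this fit are therefore a description and no independent support. Mpo was higher in at-risk pups by 1.08 (SE 0.27, adjusted p = 0.0419), a 2.11-fold difference, and Ltf by 0.67 (SE 0.15, adjusted p = 0.0284), a 1.60-fold difference. Chil3 (0.70, SE 0.21, adjusted p = 0.0814), Elane (0.98, SE 0.30, adjusted p = 0.0916) and Ngp (0.34, SE 0.09, adjusted p = 0.0659) were not called, and 9 of the 11 values were positive. These calls were not firm: they numbered 0 with no term for set, 5 with all 24 arrays in the fit and 0 to 4 as 1 array was left out, being 0 without AF87, AF88, AF89, AF118 or AF119, 1 without AF84, AF85, AF86, AF120, AF121 or AF125 and 4 without AF126.

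In the same fit over both sets 8 of 12 erythroid markers (median change 0.73), 8 of 10 platelet markers (median 1.22) and 5 of 10 endothelial markers (median 0.38) were called, all higher in at-risk pups, against 1.73% of all probe sets. The part of these cells in the differences of Mpo and Ltf was not tested.

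Other neutrophil genes were read from lists of the same compartments, with the members left out. In Set 1 normal pups, 4 of 6 other specific granule genes fell with OVA and alum, against 5.76% of all probe sets called lower and 5.73% called higher. The changes were -1.68 for Cd177, a surface protein of neutrophils stored in this granule (SE 0.20, adjusted p = 5.64e-05), -0.96 for the collagenase Mmp8 (SE 0.26, adjusted p = 0.0231), -0.93 for haptoglobin, Hp (SE 0.18, adjusted p = 0.00262), and -0.60 for the peptidoglycan-binding Pglyrp1 (SE 0.10, adjusted p = 0.000657). In at-risk pups 0 of the 6 were called by limma (1 had an unadjusted p below 0.05), with a median of -0.19. Of 5 other cytosolic or secreted products 3 fell in normal pups, and 0 were called in at-risk pups (2 with an unadjusted p below 0.05). The changes in normal pups were -1.66 for Wfdc21 (SE 0.17, adjusted p = 1.43e-05), -1.09 for the deiminase Padi4 (SE 0.20, adjusted p = 0.00196) and -0.61 for the protease inhibitor Slpi (SE 0.09, adjusted p = 0.000235). Of 3 other chitinase family genes 2 were called in normal pups, Chil1 at -1.13 (SE 0.17, adjusted p = 0.000447) and the dim Chil4 at -0.47 (SE 0.11, adjusted p = 0.00949), and 0 in at-risk pups (0 with an unadjusted p below 0.05).

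Of 5 other azurophil and early myeloid genes, 4 rose and 1 fell in stimulated at-risk pups, against 4.42% of all probe sets called higher and 3.46% called lower. The serine proteases Ctsg and Prtn3, which share the azurophil granule with Elane, rose by 2.02 (SE 0.23, adjusted p = 3.2e-05) and 1.59 (SE 0.23, adjusted p = 0.000273), and the progenitor transcription factor Myb rose by 0.33 (SE 0.05, adjusted p = 0.0011). Gfi1, a transcription repressor of granulocyte development, fell in at-risk pups by 0.56 (SE 0.08, adjusted p = 0.000435) and in normal pups by 0.94 (SE 0.09, adjusted p = 8.56e-06). Ms4a3, a marker of granulocyte and monocyte progenitors, was the remaining gene called higher in at-risk pups. In normal pups Ms4a3 fell by 1.04 (SE 0.23, adjusted p = 0.00627), and Ctsg rose by 0.79 (SE 0.24, adjusted p = 0.0431). In the maternal comparison of stimulated DCs 0 of the 5 were called by limma in Set 1 and 0 in Set 2. Of all probe sets 0.0707% were called in Set 1 and 4.62% in Set 2. An unadjusted p below 0.05 was held by 3 of the 5 in Set 1 and by 1 in Set 2. The median of the 5 was 0.90 in Set 1 and 0.70 in Set 2, or 0.40 in Set 2 without AF123. Over both sets Ms4a3 was higher in at-risk pups by 1.01 (SE 0.23, adjusted p = 0.0305), Cd177 by 0.72 (SE 0.18, adjusted p = 0.0456) and Wfdc21 by 0.61 (SE 0.14, adjusted p = 0.0276), while Trem1, of the surface receptors, was lower, with a change of -0.51 (SE 0.13, adjusted p = 0.0454).

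Of 11 markers of eosinophils, basophils and mast cells 3 rose and 1 fell with OVA and alum in at-risk pups, against 4.42% of all probe sets called higher and 3.46% called lower, and 0 rose and 1 fell in normal pups, against 5.73% called higher and 5.76% called lower. The changes in at-risk pups were 1.86 for the eosinophil peroxidase gene Epx (SE 0.20, adjusted p = 1.93e-05), 1.08 for the granule major basic protein gene Prg2 (SE 0.165, adjusted p = 0.000475) and 0.84 for the transcription factor gene Gata2 (SE 0.18, adjusted p = 0.00599). The genes that fell were Mcpt1 in at-risk pups, at -0.38 (SE 0.11, adjusted p = 0.0485), and Prg3 in normal pups, at -0.68 (SE 0.12, adjusted p = 0.00167). The median of the 11 was 0.07 in pups of both kinds of mother, with 7 positive and 4 negative changes in each. The part of eosinophils, basophils and mast cells in the change of Elane was not tested.

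Neutrophil surface receptors were lower in at-risk pups of Set 2, as Mmp9 was. Of 11 such genes 7 were called lower there, against 2.04% of all probe sets called lower and 2.58% called higher, and 7 without AF123, against 1.67% lower. Their summed signal was 13159 to 14840 in at-risk and 17119 to 18726 in normal pups of Set 2, and 15246 to 15917 in at-risk and 13855 to 14553 in normal stimulated pups of Set 1. The Set 2 change was -0.87 for Trem1, an amplifier of inflammatory signals (SE 0.07, adjusted p = 0.000265), -0.77 for the chemokine receptor Cxcr2 (SE 0.08, adjusted p = 0.000524), and -1.17 and -1.03 for the C-type lectins Clec4d (SE 0.12, adjusted p = 0.000588) and Clec4e (SE 0.13, adjusted p = 0.00202). The difference between sets was called for 6 of the 11, all lower in Set 2, against 1.13% of all probe sets called lower, such as Fpr2, a formyl peptide receptor, at -1.10 (SE 0.14, adjusted p = 0.000932). With OVA and alum 3 of the 11 fell in at-risk pups, against 3.46% of all probe sets called lower, and 6 in normal pups, against 5.76%. Clec4e, for one, changed by -1.31 (SE 0.14, adjusted p = 1.89e-05) in at-risk pups and by -1.92 (SE 0.15, adjusted p = 1.17e-06) in normal pups. Of 5 NADPH oxidase genes, of which Cybb and Cyba also stood on the specific granule list, 0 were called by limma in any comparison, with at most 2 with an unadjusted p below 0.05, in the difference between sets. Of 4 other gelatinase granule genes the integrin Itgam was called in Set 2, at -0.63 (SE 0.12, adjusted p = 0.0161), and in the difference between sets, at -0.79 (SE 0.15, adjusted p = 0.0108). Haptoglobin was lower in at-risk pups of Set 2 too, at -0.72 (SE 0.18, adjusted p = 0.0467).

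Genes for neutrophil chemoattractants changed in both directions. Of 10 such genes 2 rose and 3 fell in at-risk pups with OVA and alum, and 2 rose and 5 fell in normal pups, where of all probe sets 4.42% were called higher and 3.46% lower in at-risk pups, and 5.73% higher and 5.76% lower in normal pups. The CXCR2 ligand Cxcl1 changed by -2.33 (SE 0.13, adjusted p = 3.7e-08) in at-risk pups and by -3.22 (SE 0.14, adjusted p = 5.58e-09) in normal pups, and Cxcl2, another such ligand, by -1.92 (SE 0.15, adjusted p = 1.07e-06) in at-risk pups and by -1.85 (SE 0.16, adjusted p = 3.31e-06) in normal pups. Ppbp, which platelets carry and which also stood on the platelet list, rose by 5.40 (SE 0.23, adjusted p = 3.01e-09) in at-risk pups and by 5.37 (SE 0.25, adjusted p = 9.78e-09) in normal pups. In the maternal comparisons Cxcl1 was lower in naïve at-risk pups, with a change of -1.17 (SE 0.14, adjusted p = 0.0018), the one call of the list there. In stimulated pups of Set 2 the list had 2 genes called higher and 4 lower in at-risk pups, against 2.58% of all probe sets called higher and 2.04% called lower. Among them the change was -2.49 for Cxcl2 (SE 0.21, adjusted p = 0.000268), -0.66 for Cxcl1 (SE 0.09, adjusted p = 0.00299), 2.55 for Ppbp (SE 0.26, adjusted p = 0.00057) and 1.81 for Cxcl12, the ligand of CXCR4 (SE 0.26, adjusted p = 0.00416). Over both sets it was -1.54 for Cxcl2 (SE 0.28, adjusted p = 0.00954), -0.48 for Cxcl1 (SE 0.09, adjusted p = 0.0137) and 1.44 for Ppbp (SE 0.32, adjusted p = 0.0269).

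**Figure D4:**
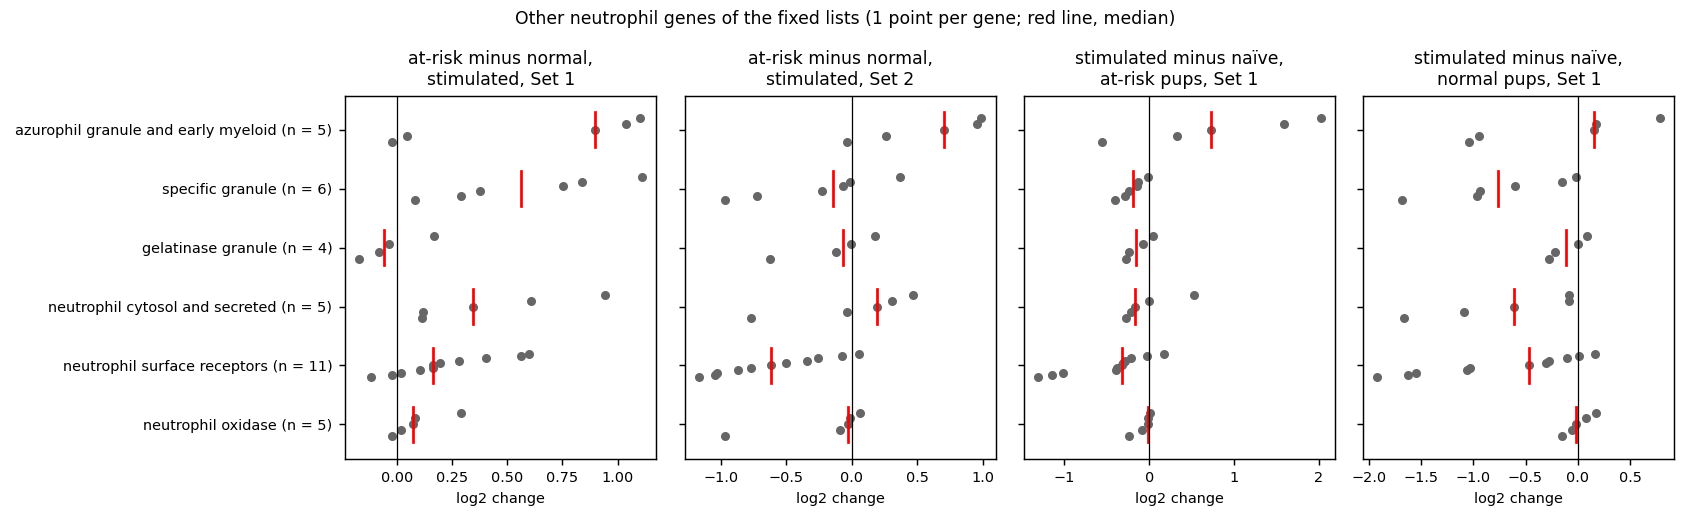
Log2 change (x axis, 1 scale per panel) of each gene (points; red line, median) of 6 lists of neutrophil genes (y axis, members left out) in 4 comparisons named above each panel; Cybb and Cyba stand on 2 of the lists. Specific granule genes had a median of -0.77 in stimulated minus naïve normal pups and of -0.19 in at-risk pups, and surface receptors had a median of -0.62 in at-risk minus normal pups of Set 2.

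Markers of other cells moved with the same groups. With OVA and alum 10 of 12 erythroid and 10 of 10 platelet markers rose in pups of both kinds of mother, against 4.42% of all probe sets called higher in at-risk pups and 5.73% in normal pups. The erythroid sum was 29718 to 36016 in stimulated and 16002 to 19112 in naïve at-risk pups, and 25780 to 29232 in stimulated and 15962 to 17953 in naïve normal pups. The platelet sum was 12177 to 21311 in stimulated and 1378 to 1725 in naïve at-risk pups, and 11434 to 15240 in stimulated and 1464 to 1574 in naïve normal pups. Of 12 splenic macrophage markers 4 fell in at-risk and 7 in normal pups, against 3.46% of all probe sets called lower in at-risk pups and 5.76% in normal pups, with sums of 39213 to 42414 in stimulated and 47444 to 55340 in naïve at-risk pups, and of 35327 to 39849 in stimulated and 49045 to 56893 in naïve normal pups. Of 11 monocyte markers 1 rose and 1 fell in at-risk pups and 3 fell in normal pups.

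In stimulated pups of Set 2 the platelet sum was 4617 to 9621 in at-risk and 1998 to 2310 in normal pups, with 10 of 10 markers called higher, the erythroid list had 4 of 12 called higher (7 without AF123, against 2.74% of all probe sets called higher in that fit), and the macrophage sum was 38574 to 46896 in at-risk and 54078 to 57418 in normal pups, with 4 of 12 called lower. The monocyte sum was 41968 to 44959 in at-risk and 46440 to 49575 in normal pups, with 4 of 11 markers called lower. Lower in at-risk pups were also 7 of 9 NK cell and 5 of 10 T cell markers, and higher were 5 of 9 B cell and 6 of 10 endothelial markers, where of all probe sets 2.04% were called lower and 2.58% higher. In stimulated pups of Set 1 the erythroid, platelet and macrophage lists had 0 calls by limma between at-risk and normal pups. Of their 12, 10 and 12 genes 9, 1 and 2 had an unadjusted p below 0.05, and their median changes were 0.40, 0.27 and 0.12. The share of all probe sets with such a p was read for naïve DCs only, so these counts cannot be set against it. Of 8 other genes of alternatively activated macrophages, a list that Chil3 shares, 1 rose and 2 fell with OVA and alum in normal pups (0.38 for Fcgr2b, SE 0.10, and -0.54 for Mrc1, SE 0.10, with Chil4 as above), and 0 were called by limma in at-risk pups (2 with an unadjusted p below 0.05). Of the 14 DC markers 2 rose and 1 fell in normal pups with OVA and alum. In at-risk pups 0 were called by limma (3 with an unadjusted p below 0.05). Beside the counts of these lists in normal pups, 5.73% of all probe sets were called higher and 5.76% lower. With OVA and alum 7 of 10 T cell and 7 of 9 NK cell markers fell in at-risk pups, against 3.46% of all probe sets called lower. In normal pups 9 of 10 T cell and 6 of 9 NK cell markers fell, against 5.76%. The part of these cell types in the changes of the granule genes was not tested.

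Across the 24 arrays, each value taken from the mean of its set, the members fell into patterns that were described by Pearson's r with no test, since arrays of a group and a set share their preparation. The members were also chosen on differences between groups of Set 1, which r follows, so part of their likeness to each other can come from the choice. Chil3 went with Ltf (r = 0.962), Lcn2 (0.950), Ngp (0.924), S100a8 (0.909), S100a9 and Camp (0.830 each) and Mmp9 (0.691), but not with Elane (0.271) or Mpo (-0.13), which went with each other (0.867). Of all other genes the most like Chil3 were Cd177 (0.967), Wfdc21 (0.962), the small GTPase gene Rhou (0.948), Chil1 (0.941) and Orm1 (0.934), an acute phase glycoprotein. The mean of S100a8 and S100a9 was most like Chil1 (0.908), Ncam1 (0.890), Trem3 (0.888), Rflnb (0.881) and Rhou (0.880). Mpo, for which the same was read after its values were seen, was most like Car1 (0.962), a carbonic anhydrase of red cells, Alad (0.953), an enzyme of heme synthesis, Cdc25b (0.953), Tom1l1 (0.952) and Gstm5 (0.949).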

How the data were processed

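Gene expression was measured on 24 Affymetrix Mouse430A 2.0 arrays in 6 groups. The authors deposited 1 intensity per probe set, as RMA signal not in logs, and preprocessed Sets 1 and 2 separately after excluding 1 array of each by principal component analysis. The methods name a RefSeq-based probe set definition, but the deposited table held Affymetrix probe sets. Log2 was taken, with no pseudocount. Signal over background was not given, so the number of arrays limits the stated precision. The 64 control probe sets were left out, and 22626 were tested with limma 3.58.1 in R 4.3.3, p-values being adjusted over all of them. Set 1 comparisons used its 15 arrays with 1 mean per group, and Set 2 comparisons its 9. Of the probe sets 20380 had 1 symbol in the platform annotation, 691 several and 1555 none, and 0 columns belonged to no sample.

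The members, the lists and the tests were chosen with earlier results of these data known, so p-values of comparisons in Set 1 and over both sets are no independent support. Every member probe set was accounted for. A gene of another list was named if called, up to 4 per list and comparison by adjusted p, and was represented by its probe set of highest mean. The alternatives were median centring, quantile normalization, a filter on dim probe sets, trend and robust, array weights, no fold threshold, 1 probe set per gene, all 24 arrays, only the groups compared, no term for set, set as a random block and each array left out. List counts without AF123, AF80 or AF125 were added after the data were seen. The share of all probe sets with an unadjusted p below 0.05 was read for naïve DCs only. Counts at that p in the other comparisons have no such share beside them. The fits were tested on simulated data. Other steps used Python 3.11.15, pandas 2.3.3, numpy 2.4.6 and matplotlib 3.10.9.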

Additional observations from a re-analysis of the deposited data

Results flagged for a closer look

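In groups of 4 or 5 arrays, 6 of the 55 combinations of a member probe set and a group held an array far from the rest by Dixon's criterion, which chance gives in about 1 of 20. AF123, a stimulated at-risk array of Set 2, stood apart for Chil3 at a log2 signal of 11.02 (the other 4 arrays at 9.33 to 9.78) and for Ltf at 12.61 (the others at 11.31 to 11.63). AF80, a naïve at-risk array, stood apart for S100a8 at 13.67 and for Mmp9 a at 10.45. Among the stimulated normal arrays of Set 2, AF121 was low for Ngp at 11.66 and AF120 high for Elane at 6.63.

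The maternal effect in stimulated DCs differed between the sets for Mmp9, by -1.07 (Mmp9 a) and -0.99 (Mmp9 b), Set 2 minus Set 1. This difference subtracts the Set 1 effect, on which the genes were chosen. The change of Chil3 with OVA and alum differed by 1.51 between at-risk and normal pups; this contrast was among those on which the gene was chosen.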

How the results depend on the processing

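Of 2030 values of single probe sets under alternatives, 1920 kept their direction and their side of the threshold, 26 changed sign (22 of them as 1 array was left out), 43 gained a call and 41 lost one. With array weights the sign turned for Mpo in naïve DCs (-0.23), Lcn2 in Set 2 (-0.15) and the difference between sets of Mpo (-0.16) and Elane (-0.24). As 1 array was left out, these changes turned sign: in naïve DCs Mpo (-0.26 without AF79) and Camp (0.030, 0.12, 0.011 and 0.010 without AF76, AF77, AF81 and AF83); in Set 2 Camp (0.050, 0.016, 0.068 and 0.030 without AF118, AF124, AF126 and AF127), Chil3 (-0.061 without AF123) and Lcn2 (-0.025, -0.13 and -0.032 without AF121, AF123 and AF125); in the difference between sets Mpo (-0.029 and -0.18 without AF90 and AF123) and Elane (-0.0012 and -0.27 without AF87 and AF123); with OVA and alum Elane in normal pups (-0.060 and -0.050 without AF79 and AF87), and in at-risk pups S100a8 (0.017 without AF80) and Ltf (0.055 and 0.014 without AF80 and AF90). None of these was called.

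The 9 calls with OVA and alum in normal pups stayed 9 and the 2 in at-risk pups stayed 2 for every array left out, and the count in at-risk pups was 1 without dim probe sets. The count for naïve DCs was 0 throughout. The maternal effect in stimulated DCs had 5 calls with all 24 arrays, 0 with no term for set and 0 to 4 with 1 array left out. In Set 1 it had 5 with array weights, 0 with all 24 arrays and 1 to 5 with 1 array left out (5 without AF79 or AF90; 1 without AF86, AF87, AF88, AF89 or AF91). In Set 2 it had 1 with 1 probe set per gene, which leaves Mmp9 a single one, and 0 to 2 with 1 array left out. The difference between sets had 7 with array weights and 2 to 6 with 1 array left out. The interaction had 2 with median centring or quantile normalization, 3 without dim probe sets, with trend and robust, with array weights or with 1 probe set per gene, 0 with all 24 arrays and 1 to 3 with 1 array left out (3 without AF80 or AF90). The share of all probe sets called was read for a few of these fits only, all of them without AF123, AF125 or AF80. Most of these counts, here and above, therefore stand without it. For the difference between sets it was 1.79% in the main fit, 1.7% without AF123 and 4.37% without AF125. The cause of the changes in these counts was not tested. No paired analysis was possible because the labels give groups no shared replicate numbers.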
